A study of Homo sapiens with 4 samples.

Results

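The replication-dependent histone genes were read out in HT1080 cells with a KDAC8 (HDAC8) knockout. They were chosen by name alone: rows of the deposited table named HIST1 to HIST4, then H1, H2A, H2B, H3 or H4, without the 13 rows marked PS as pseudogenes. This gave 76 of 60675 gene rows. By type they are 6 H1, 17 H2A, 23 H2B, 15 H3 and 15 H4 rows. By cluster they are 55 HIST1 rows on chromosome 6, 16 HIST2 and 4 HIST3 rows on chromosome 1, and 1 HIST4 row on chromosome 12. GENCODE 29 lists 70 of them as protein-coding and 5 as pseudogenes whose names lack the PS mark; the table's ID for HIST2H2BC was not found in it.

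HT1080 is a human fibrosarcoma line of connective tissue, grown as a culture in serum-containing medium. All 4 libraries carry the same genotype, a KDAC8 knockout, and come from total RNA of frozen cell pellets after depletion of ribosomal RNA. No library of parental HT1080 cells was analysed here, so the values are levels in knockout cells and the spread between 4 libraries, not effects of the knockout. Whether the replicates are separate cultures or clones, how the knockout was made and whether the cells were synchronised is not stated in the labels. Tests across the 4 libraries therefore cover the differences among these samples alone, and those may be technical.

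Replication-dependent histone genes supply the proteins that wrap newly made DNA. H2A, H2B, H3 and H4 form the nucleosome core and H1 binds the linker DNA between nucleosomes. They lie in clusters of many near-identical copies, are transcribed mainly in S phase, and their mRNAs end in a conserved stem-loop in place of a poly(A) tail, so that RNA selected by poly(A) largely misses them while RNA depleted of ribosomal RNA keeps them. The stem-loop is bound by SLBP and the mRNA is cut after it with the help of the U7 small nuclear RNP.

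The stem-loop itself is shown because its letters differ between H4 and the other core histones in these transcripts. It was searched on the sense strand of GENCODE 29 transcripts by the consensus of the histone stem-loop, 16 bases of which 6 were left free. The motif was present in 34 of 75 members with a transcript, 45.3%, against 0.315% of all 58676 genes (185 genes). It was found in 32 of 38 members whose protein-coding model extends beyond the coding sequence and in 0 of 32 whose model holds only the coding sequence, so its absence there says only that these letters are not in the model. The most common 16-base form was carried by 18 members, 6 of type H2A, 9 of type H2B and 3 of type H3. The forms that begin and end with GGCC were carried by 8 members, all of them H4, among them HIST1H4J and HIST2H4A. Capitals mark the matched stem and loop in the DNA letters of the transcript, with 5 flanking bases on each side.
HIST2H2AA3: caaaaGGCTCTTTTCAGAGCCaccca
HIST2H2BE: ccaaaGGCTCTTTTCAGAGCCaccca
HIST1H2BC: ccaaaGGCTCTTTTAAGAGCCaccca
HIST1H3H: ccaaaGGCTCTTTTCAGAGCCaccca
HIST1H3E: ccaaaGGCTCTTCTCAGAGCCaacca
HIST1H4J: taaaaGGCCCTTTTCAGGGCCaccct
HIST2H4A: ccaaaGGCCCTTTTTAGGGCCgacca

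Promoters are shown for 3 pairs of genes of the same type, of which 1 in each pair was listed at 0 CPM, chosen after their values were seen, since H1, H2B and H4 windows are each rich in a short motif of their own type (ATTTGCAT is shared by H2A and H2B). RefSeq promoter windows (GRCh38.p14, 250 bases before to 50 after the start) were matched for 61 of 76 members and searched on both strands. AAACACA, the element known from H1 promoters, was in 6 of 6 H1 windows and in 0 windows of the other types, against 4.82% of all 35116 RefSeq promoters. ATTTGCAT, the octamer bound by POU2F1, was in 14 of 18 H2B and 11 of 14 H2A windows, against 1.63% of all promoters. Windows of divergent H2A and H2B neighbours overlap, as for HIST1H2AC and HIST1H2BC, so the same stretch of DNA can be counted under both types. These counts are therefore not all of separate promoters. GGTCCG was in 12 of 13 H4 windows, against 9.43%, and is part of the element bound by HINFP. CCAAT was in every H1, H2A, H2B and H3 window and in 3 of 13 H4 windows, against 32.0%, while TATAAA was in 25 of 37 detected and 15 of 24 not detected members, against 10.7%. The sequences are the 150 bases before the start, 5′ to 3′ on the gene's strand, with the motif of the type, TATAAA on either strand and, for H1, CCAAT in capitals.
HIST1H1E (chr6:26156179-26156328, plus strand, 455 CPM): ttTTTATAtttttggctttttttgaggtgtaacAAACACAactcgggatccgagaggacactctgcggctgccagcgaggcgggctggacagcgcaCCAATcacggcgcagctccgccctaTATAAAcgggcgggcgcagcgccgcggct
HIST1H1D (chr6:26234988-26235137, minus strand, 0 CPM): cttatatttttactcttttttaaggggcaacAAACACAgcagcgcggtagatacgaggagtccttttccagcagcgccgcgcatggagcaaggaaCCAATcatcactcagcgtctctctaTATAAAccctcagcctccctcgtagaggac
HIST1H2BJ (chr6:27132796-27132945, minus strand, 183 CPM): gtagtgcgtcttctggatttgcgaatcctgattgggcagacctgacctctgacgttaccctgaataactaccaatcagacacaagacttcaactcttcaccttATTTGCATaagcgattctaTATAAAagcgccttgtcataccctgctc
HIST1H2BI (chr6:26272781-26272930, plus strand, 0 CPM): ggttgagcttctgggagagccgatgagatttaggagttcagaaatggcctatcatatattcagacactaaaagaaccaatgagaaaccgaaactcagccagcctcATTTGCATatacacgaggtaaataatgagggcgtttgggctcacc
HIST1H4J (chr6:27823942-27824091, plus strand, 224 CPM): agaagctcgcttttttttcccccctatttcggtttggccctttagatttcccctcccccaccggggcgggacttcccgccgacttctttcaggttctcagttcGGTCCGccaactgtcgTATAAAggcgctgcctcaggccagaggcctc
HIST1H4K (chr6:27831561-27831710, minus strand, 0 CPM): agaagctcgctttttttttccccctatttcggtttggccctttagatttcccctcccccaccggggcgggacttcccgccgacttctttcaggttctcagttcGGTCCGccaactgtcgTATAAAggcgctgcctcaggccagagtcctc
For HIST1H4J and HIST1H4K the counts cannot be told apart, because their transcripts share sequence, so the values of 224 and 0 CPM do not show a difference in level. The motif of the type was present in windows of the type whether or not the gene was detected: in 4 of 4 not detected and 2 of 2 detected H1 windows, in 6 of 6 not detected and 8 of 12 detected H2B windows, and in 4 of 5 not detected and 8 of 8 detected H4 windows. The printed windows of HIST1H4J and HIST1H4K were the same at 148 of 150 positions, while those of HIST1H1E and HIST1H1D were the same at 51 and those of HIST1H2BJ and HIST1H2BI at 37, compared without gaps.

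Values below are expected counts scaled to CPM (counts per 1e+06) by TMM library sizes, as mean ± SD over the 4 libraries (n = 4) unless each library is given in the order of replicates 1 to 4. CPM is a level per gene, and levels of different genes are compared per kilobase (kb) of annotated exon. Library totals were 39454167 to 45828772 rounded counts. The targeted gene HDAC8 (ENSG00000147099) stood at 1.98, 2.11, 2.10 and 2.53 CPM. Counts over a whole gene do not show where it was edited, so they do not check the knockout label. All 5 mesenchymal markers examined were detected and all 3 epithelial markers were at 0 counts. The haematopoietic and endothelial lists each had 0 of 3 markers detected.

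Part of the histone set was detected, a share close to that of protein-coding rows. A row counted as detected when every library reached 1 CPM, which 47 of 76 members met, against 58.8% of protein-coding rows and 21.4% of all rows. Another 16 members had 0 counts in all 4 libraries, against 15% of protein-coding rows, and the other 13 lay between, with means below 1 CPM. Zero counts over 4 libraries allow a level of up to 0.0176 CPM (3 counts, counting error only). The detected members spread from 1.37 CPM to 485 CPM, with a median of 106.5 CPM. HIST1H4I, just above 1 CPM, had 1.36, 1.04, 1.70 and 1.37 CPM, and HIST1H2BE, just below, had 0.778, 0.653, 1.002 and 0.852 CPM.

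**Figure D1:**
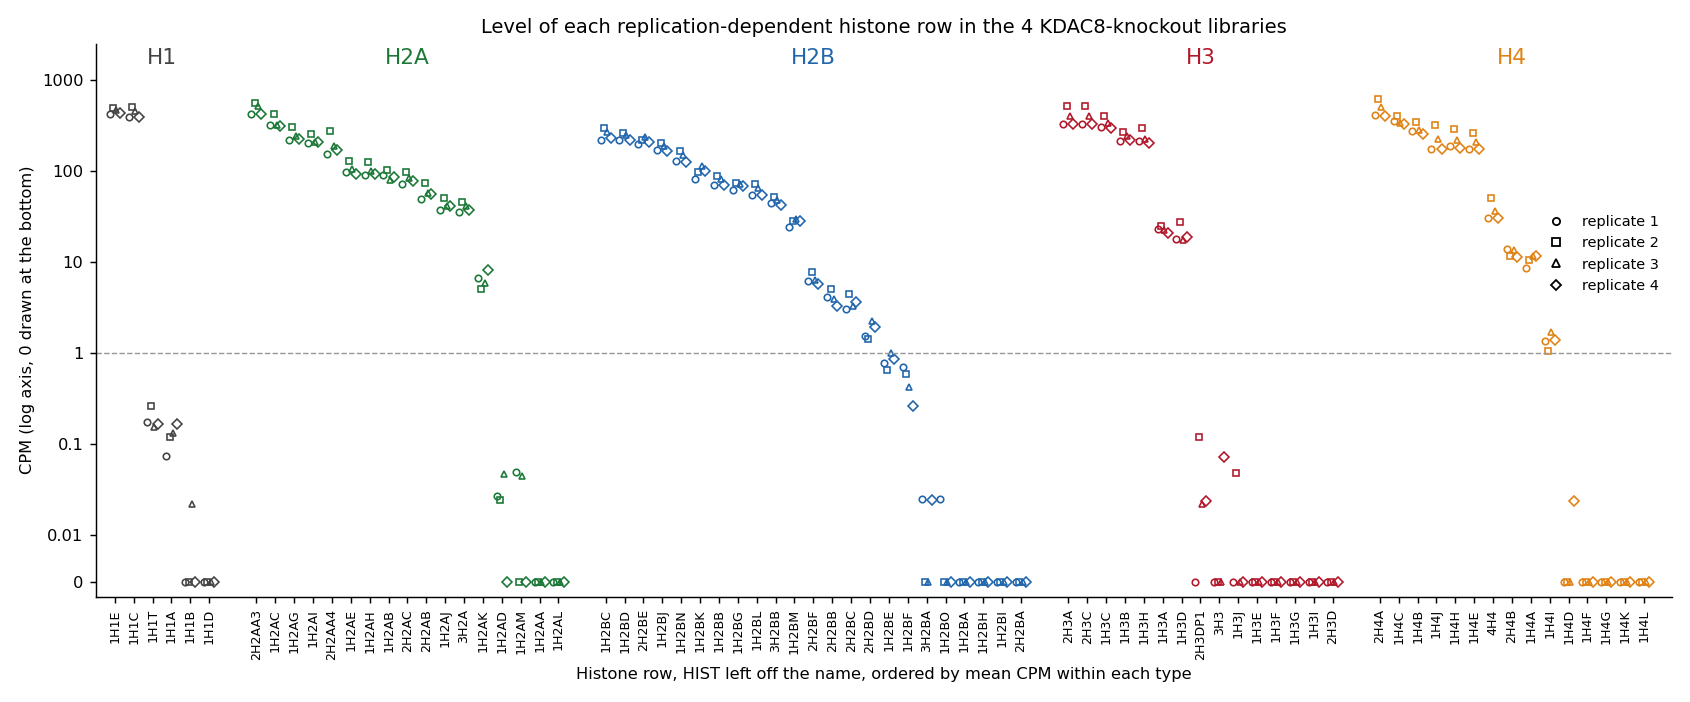
Level of all 76 histone rows (log axis, CPM, 0 drawn at the bottom) in each of the 4 knockout libraries, grouped by type and ordered by mean, with a dashed line at 1 CPM. The 47 detected rows lie above the line in every library and the 16 rows at 0 counts sit on the lowest tick.

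Together the members took 0.715%, 0.906%, 0.787% and 0.719% of all counts. Their summed level was 6981, 9406, 7958 and 7016 CPM, so replicate 2 was highest and replicates 1 and 4 were lowest and close to each other. In RNA from a whole culture, fewer cells in S phase and less histone RNA per cell cannot be told apart. By type the summed level was 2024 ± 299 CPM for H2A, 1848 ± 333 CPM for H4, 1641 ± 296 CPM for H3, 1434 ± 144 CPM for H2B and 893 ± 86.1 CPM for H1. The linker histone was thus the lowest, and each type was above the next in 4 of 4 libraries. An exact two-sided sign-flip permutation test on the 4 libraries gave p = 0.125 for each of the 4 neighbouring pairs (adjusted p = 0.125). This is the smallest value 4 libraries allow. The order was set by the means of these same libraries, so the test cannot decide it. The mean ratios were 1.10 for H2A over H4, 1.13 for H4 over H3, 1.14 for H3 over H2B and 1.60 for H2B over H1.

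The order of H2A and H4 depended on the length used. Per kb of exon, the summed level was 3222 ± 462 for H2A, 2646 ± 444 for H4, 2167 ± 328 for H3, 1635 ± 169 for H2B and 1286 ± 127 for H1, which keeps the order. Per kb of coding length, H4 led with 5979 ± 1076, ahead of H2A at 5197 ± 769, H3 at 4023 ± 725, H2B at 3631 ± 364 and H1 at 1379 ± 133. H4 coding sequences are the shortest, at 309 bases for most rows, and the annotated exon of a row can be several times longer.

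**Figure D2:**
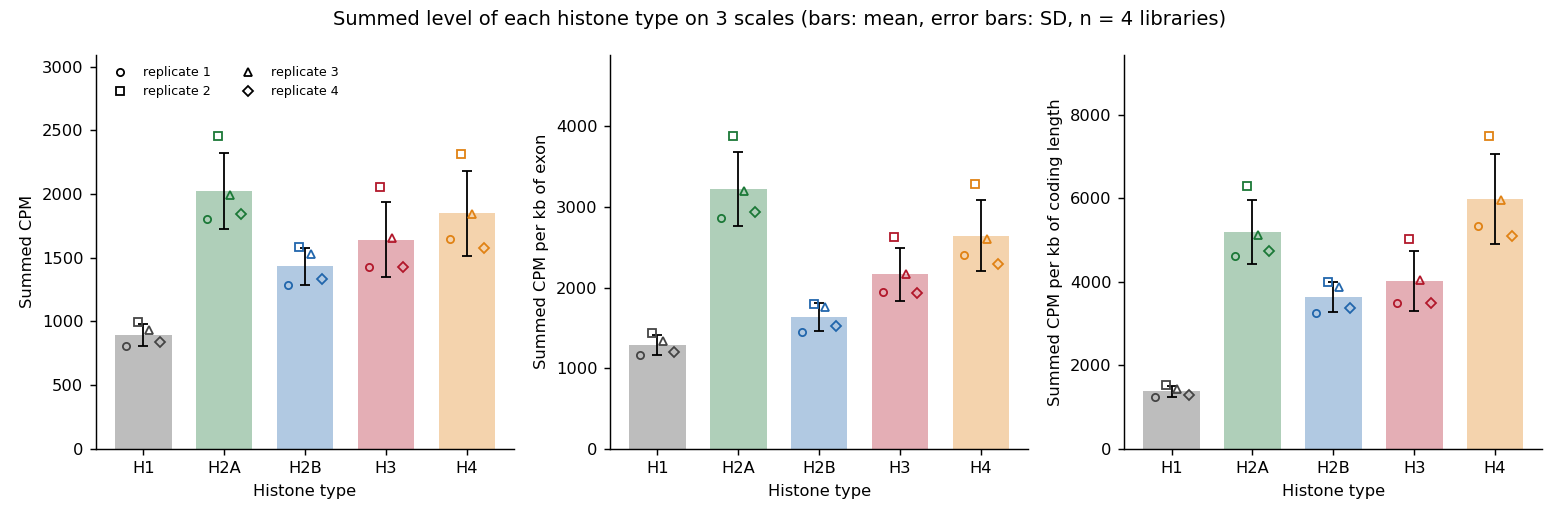
Summed level per histone type as CPM, as CPM per kb of exon and as CPM per kb of coding length; bars are means, error bars SD and points the 4 libraries. H1 is lowest on each scale, H2A is highest on the first and second, and H4 is highest per kb of coding length at 5979.

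The RNA of the replication-dependent linker histone rows came almost wholly from 2 genes. HIST1H1E (chromosome 6, 26156354 to 26157107, plus strand, GRCh38) had 420, 491, 472 and 438 CPM, and HIST1H1C (26055787 to 26056428, minus strand) had 390, 504, 461 and 397 CPM. Both were highest in replicate 2 and lowest in replicate 1. HIST1H1E held 51.0 ± 1.39% of H1 counts, and the order per length depended on the model: HIST1H1E had 604 ± 42.6 CPM per kb of exon, against 682 ± 84.7 for HIST1H1C, while per kb of coding length HIST1H1E had 693, against 685 for HIST1H1C. The other 4 H1 genes were near or at 0: HIST1H1T, known as the testis linker histone, averaged 0.189 CPM, HIST1H1A averaged 0.123 CPM, HIST1H1B had 1 count in all libraries together and HIST1H1D had none. None of the 6 H1 transcripts shared a window of 100 bases with another gene, so reads of these genes are not split by such repeats.

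H2A was the type with the highest summed CPM, and 13 of its 17 rows were detected. By CPM, HIST2H2AA3 led, with 425, 562, 524 and 429 CPM, followed by HIST1H2AC with 318, 427, 319 and 316 CPM. Next were HIST1H2AG at 248 ± 40.1 CPM and HIST1H2AI at 219 ± 23.1 CPM. HIST2H2AA3 also led per kb of exon, at 883. On that scale HIST1H2AI at 436 and HIST1H2AH at 266 exceeded HIST1H2AC at 207 and HIST1H2AG at 110. HIST1H2AC was clearly higher in replicate 2 only, and the other 3 libraries lay within 3 CPM of each other. HIST2H2AA4 was the most variable H2A row at 10 CPM or more, with 154, 276, 187 and 171 CPM. It shared 96.8% of its windows of 100 bases with HIST2H2AA3, and the table assigns both the protein Q6FI13, so the split between them is uncertain. Their sum was 682 ± 119 CPM. The 5 rows listed with protein P0C0S8 (HIST1H2AG, HIST1H2AI, HIST1H2AK, HIST1H2AM and HIST1H2AL) summed to 473 ± 61.8 CPM, with 3 of 5 detected. This sum is uncertain, since HIST1H2AI shared 57.7% of its windows of 100 bases with HIST1H2AJ, which is listed with another protein. HIST1H2AK, detected at 6.45 CPM, lies wholly opposite HIST1H2BN at 142 CPM, and the strand setting is not known. The 2 rows of protein P04908, HIST1H2AE and HIST1H2AB, summed to 196 ± 25.2 CPM. In HIST3, HIST3H2A had 40.3 ± 4.48 CPM.

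H2B had the most rows, with no single row in the lead. Of 23 rows, 15 were detected, and the 4 highest held 62.2 ± 0.246% of H2B counts, against 64.1 ± 0.831% for H2A, 73.7 ± 0.739% for H4 and 83.0 ± 0.639% for H3. By CPM, the highest were HIST1H2BC with 222, 300, 272 and 233 CPM and HIST1H2BD with 237 ± 22.7 CPM. HIST2H2BE followed with 198, 218, 239 and 207 CPM, and HIST1H2BJ with 183 ± 18.2 CPM. Per kb of exon, HIST1H2BC at 308 and HIST1H2BD at 272 stayed ahead. On that scale HIST1H2BK at 259 and HIST1H2BB at 205 exceeded HIST1H2BJ at 192 and HIST2H2BE at 98.2. HIST2H2BE was highest in replicate 3, unlike the 3 other leading H2B rows, which were highest in replicate 2. HIST1H2BC was also the most variable H2B row at 10 CPM or more, by an SD of 0.20 log2 units. Of the 5 rows with protein P62807, HIST1H2BC and HIST1H2BG were detected, HIST1H2BE and HIST1H2BF were below 1 CPM and HIST1H2BI was at 0, with a sum of 327 ± 40.7 CPM. HIST3H2BB stood at 46.7 ± 4.43 CPM, while the pseudogene row HIST3H2BA had about 2 expected counts in all.

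H3 RNA was split almost evenly between HIST1 and HIST2. HIST2H3A and HIST2H3C had identical values, 327, 515, 405 and 332 CPM each, and differed by 0 counts. They shared all of their windows of 100 bases, so they are copies between which the counting divides reads, and their sum of 789 ± 175 CPM is the value to read. These copies were also the most variable H3 rows at 10 CPM or more, with an SD of 0.31 log2 units. HIST2H3D, listed with the same protein Q71DI3, was at 0 in all 4 libraries. In HIST1, HIST1H3C had 307, 402, 335 and 299 CPM and HIST1H3B had 238 ± 24.7 CPM, both with coding-only models, which makes HIST1H3C at 817 ± 114 one of the highest members per kb of exon. HIST1H3H followed at 235 ± 44.7 CPM. HIST3H3, known as a testis form of H3, had 3 counts, all in replicate 4. HIST1H3D, at 20.4 ± 4.66 CPM, shared all of its windows with an overlapping row on the same strand, RP1-34B20.21, which had 41.0 ± 5.15 CPM, so their split is uncertain (this row was chosen after its values were seen).

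By CPM, H4 was led by HIST2H4A with 419, 616, 503 and 403 CPM and HIST1H4C with 355, 406, 340 and 330 CPM. HIST1H4B followed with 279, 348, 285 and 259 CPM, and HIST1H4J with 176, 320, 224 and 176 CPM. The order changed per kb of exon, with 822 for HIST1H4C, 669 for HIST1H4B, 600 for HIST1H4J and 259 for HIST2H4A. Each of these rows has a coding length of 309 bases, so per kb of coding length the CPM order holds. HIST1H4J was the most variable member of all at 10 CPM or more, its highest library being 1.82 times the lowest, with an SD of 0.41 log2 units. HIST1H4K, whose promoter nearly matches that of HIST1H4J, was listed at 0 in all 4 libraries, but 100% of its windows were found in HIST1H4J, so its reads and those of HIST1H4J cannot be told apart. The copies HIST2H4A and HIST2H4B were counted at 485 ± 97.7 and 12.6 ± 1.36 CPM and shared 94.9% and 97.1% of their windows, so only their sum of 498 ± 97.4 CPM is read. HIST4H4 on chromosome 12 had 30.5, 50.9, 36.5 and 30.4 CPM and made 0.468% of all member counts.

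The clusters contributed unequally by type. HIST1 held 68.7 ± 1.12% of member counts, HIST2 29.8 ± 1.12% and HIST3 1.12 ± 0.0477%. All H1 counts lay in HIST1. HIST2 held 47.8 ± 2.07% of H3 counts, 40.6 ± 1.66% of H2A, 26.9 ± 0.830% of H4 and 16.2 ± 0.834% of H2B counts. HIST2, with 16 rows, had 13 detected, HIST1 had 31 of 55, and HIST3 had 2 of 4.

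Of the 24 HIST1 rows that were not detected, 15 lay side by side in a pair of unbroken stretches. Along chromosome 6 (GENCODE 29, GRCh38), 8 consecutive members from 26224199 to 26273356, a stretch of 49.2 kb, had 0 counts in all 4 libraries. They are HIST1H3E, HIST1H1D, HIST1H4F, HIST1H4G, HIST1H3F, HIST1H2BH, HIST1H3G and HIST1H2BI, which cover H1, H2B, H3 and H4. The 2 pseudogene rows inside the stretch were also at 0. The member on its left, HIST1H2AE, stood at 106.5 ± 16.3 CPM and the member on its right, HIST1H4H, at 221 ± 50.4 CPM.

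A second such stretch ran from 27865355 to 27893843, 28.5 kb at the far end of the cluster. Its 7 consecutive members, HIST1H2AL, HIST1H1B, HIST1H3I, HIST1H4L, HIST1H3J, HIST1H2AM and HIST1H2BO, had 8 counts in all over the 4 libraries. At the other end of the cluster the divergent pair HIST1H2AA and HIST1H2BA, known from testis, was also at 0. The intermediate group of 5 rows between 27125897 and 27147515 had 5 of 5 detected (the rows of these stretches were chosen after their values were seen).

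Sequence shared with other genes was examined for both stretches in the models of GENCODE 29. All 8 rows of the first stretch had no window of 100 bases in common with any other gene. The same held for 5 of the 7 rows in the second. With windows of 50 bases, HIST1H3E shared 1.29% and HIST1H2BI 3.31% of theirs. Across all members, 13 of the 16 rows at 0 shared no such window, the other 3 being HIST1H4K, HIST2H3D and HIST2H2BA. Promoter windows were matched for all 8 rows of the first stretch, and 7 of them held the motif searched for their type. These motifs were AAACACA for H1, ATTTGCAT for H2A and H2B, CCAAT for H3 and GGTCCG for H4. CCAAT was in every H1, H2A, H2B and H3 window, so it does not mark H3. Over HIST1, the motif was in 21 of 26 matched windows of detected rows and 21 of 22 of rows not detected. Overlapping windows of divergent pairs, and the window that HIST1H3D has in common with HIST1H2AD, were counted for each row. Transcript models that hold only the coding sequence were found for 5 of 8 rows in the first stretch and 6 of 7 in the second, against 13 of 31 detected HIST1 rows. Over all clusters, 15 of 32 members with a coding-only model were detected and 11 were at 0, against 29 detected and 4 at 0 of 38 with a longer model. The models behind the authors' counts are not stated. The part of shared sequence and of model length in the zeros was not tested.

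**Figure D3:**
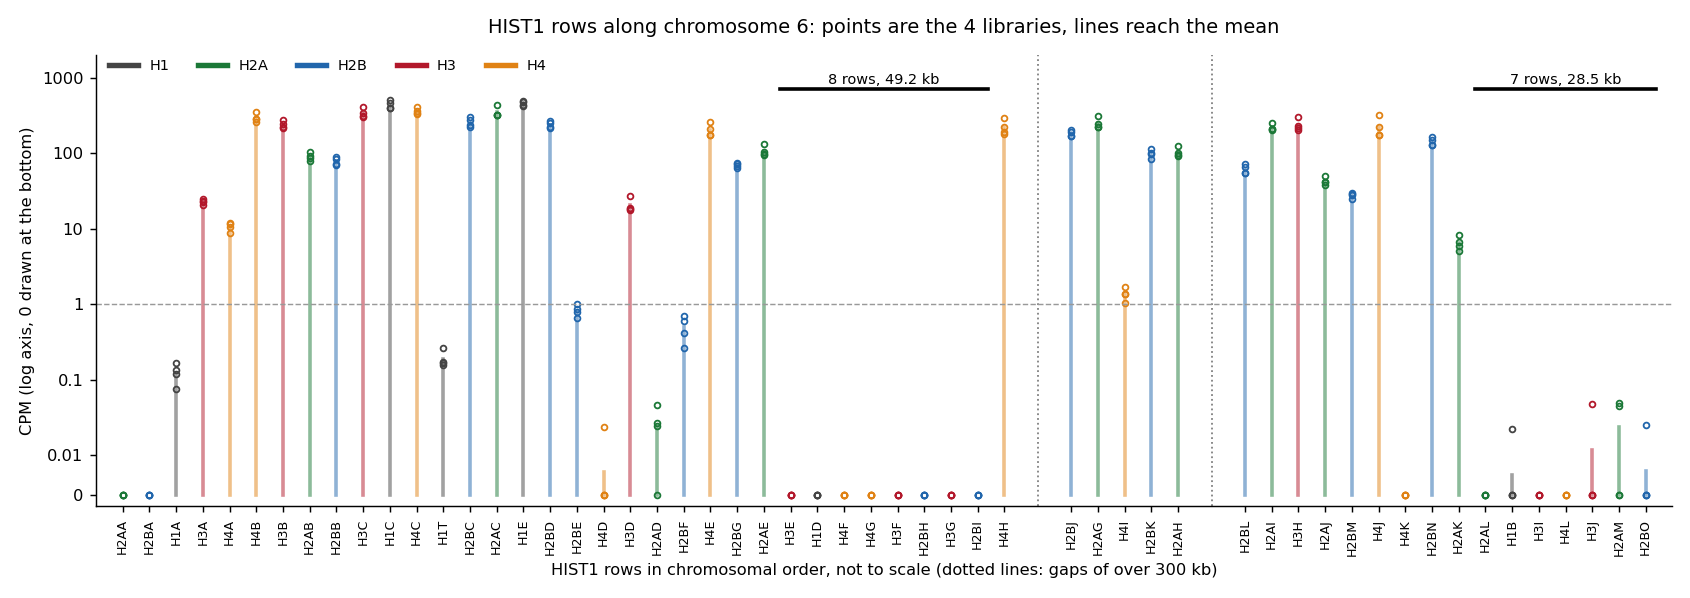
CPM (log axis, 0 drawn at the bottom) of the 55 HIST1 rows in chromosomal order on chromosome 6, coloured by type; points are the 4 libraries and lines reach the mean. Black bars mark the stretches of 8 rows (49.2 kb, all at 0) and 7 rows (28.5 kb, 8 counts in all).

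As counted in the table, with a cut of 1 CPM, divergent H2A and H2B neighbours were both detected or both not detected. Rows of uncertain count or near the cut limit this reading. With starts less than 1000 bases apart and facing away from each other, 12 pairs were found, 138 to 330 bases apart. Both rows were detected in 9 pairs, and 0 pairs had 1 row detected. Neither row was detected in 3 (HIST1H2AA with HIST1H2BA, HIST1H2AD with HIST1H2BF, HIST1H2AM with HIST1H2BO). Over all rows of these types, 13 of 17 H2A and 15 of 23 H2B were detected. HIST2H2BD was near the cut, at 1.78 ± 0.370 CPM, and its pair with HIST2H2AA3 would split at 5 CPM. HIST2H2BD also overlaps RP11-196G18.22 on the opposite strand, which had 16.5 ± 2.05 CPM, and the strand setting is not known. HIST1H2AD shared 97.6% of its windows of 100 bases with the overlapping row RP1-34B20.21 on the same strand, which had 41.0 ± 5.15 CPM, so whether HIST1H2AD was expressed cannot be read from its count. Per kb of exon, the H2A row was higher in 7 of 9 detected pairs, from HIST1H2AH at 266 against 259 for HIST1H2BK, to HIST2H2AA3 at 883 against 0.494 for HIST2H2BD, which is annotated as a pseudogene. H2B was higher in the pairs of HIST1H2BC (308, against 207 for HIST1H2AC) and HIST1H2BJ (192, against 110 for HIST1H2AG). The direction within a pair depended on the length used. Per kb of coding length, H2A was higher in 6 of the 8 pairs in which both rows have one, and the direction was the same as per kb of exon in 4 of 8. It turned round for HIST1H2AC (885, against 679 for HIST1H2BC) and HIST1H2AG (636, against 439 for HIST1H2BJ), and also for HIST2H2AC (213, against 570 for HIST2H2BE) and HIST3H2A (103, against 124 for HIST3H2BB). Windows shared with other genes make the values of HIST2H2AA3, HIST1H2AI, HIST1H2AJ, HIST1H2AD and HIST1H2AM less certain. Smaller shares of windows of 100 bases were found for HIST1H2BK (28.4%), HIST2H2AC (17.2%) and HIST2H2BD (15.3%).

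**Figure D4:**
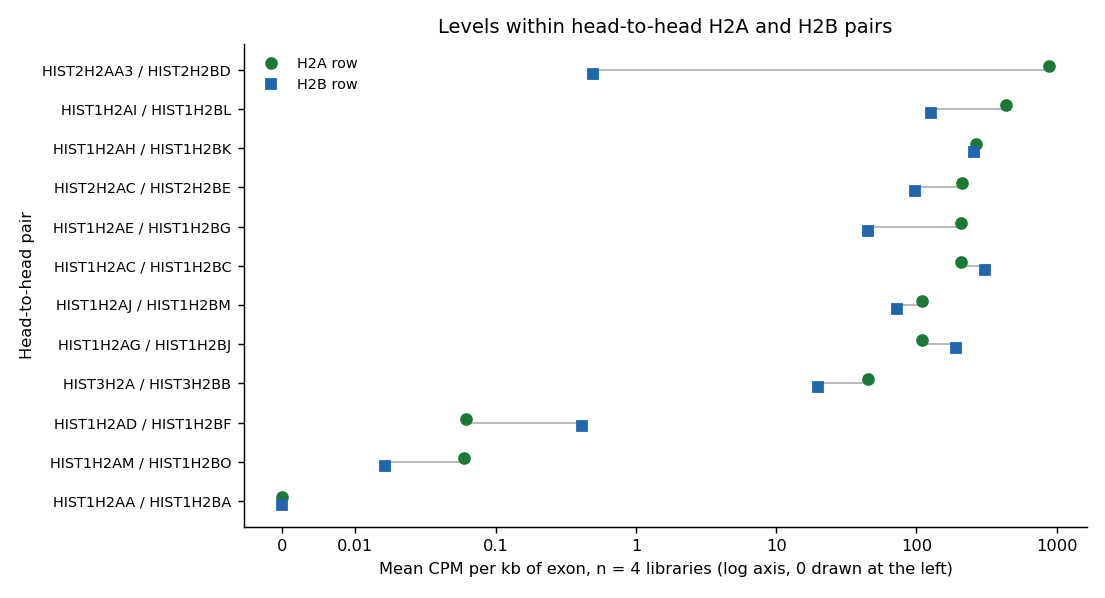
Mean CPM per kb of exon (log axis, 0 drawn at the left) for the H2A row (circle) and the H2B row (square) of each of the 12 head-to-head pairs. In 9 pairs both rows were detected at 1 CPM, HIST2H2BD narrowly, and in 3 pairs neither was.

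Nearly all tested histone rows differed between libraries beyond counting noise. With a chi-square test of homogeneity on rounded counts against the TMM library sizes, adjusted by Benjamini-Hochberg over all 16790 rows with a mean of 10 or more counts, 47 of 49 tested members varied at an adjusted p under 0.05, against 59.2% of all rows tested. The 2 that did not pass the chi-square test were HIST1H4I (adjusted p = 0.117, highest library 1.63 times the lowest) and HIST1H2BE (adjusted p = 0.446, 1.54 times). At this depth the call needs little: with a highest library at least 1.5 times the lowest, 13 of 49 varied, against 12.3% of all rows tested. Among rows with a mean of 10 CPM or more, 41 of 41 members varied, against 77.7%, and 9 of 41 by 1.5 times or more, against 1.75% of 9480 rows. The median range of those 41 members was 1.34 times, against 1.15 times over the 9480 rows, and the median SD was 0.19 log2 units, against 0.09. Without replicate 2, the count of members that varied by 1.5 times or more was 1.

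The spread was directional, and replicate 2 was at its upper end. Of the 41 members at 10 CPM or more, 36 were highest in replicate 2, against 37.6% of all rows at that level. The copies HIST2H3A and HIST2H3C, with identical values, count as separate rows here. Replicate 1 was lowest for 22 and replicate 4 for 17. The deviation in replicate 2 was larger for H3 and H4 than for H1 and H2B: the median difference from the mean of the 4 libraries was 0.37 log2 units for H3, 0.36 for H4, 0.27 for H2A, 0.17 for H2B and 0.16 for H1. These type differences were not tested. HIST1H4J stood at 320 CPM in replicate 2, against 224 CPM in its next library. HIST2H4B, HIST1H4A, HIST1H2BK, HIST1H2BM and HIST2H2BE were the 5 that were not highest in replicate 2 (chosen after their values were seen). HIST2H4B is read only in its sum with HIST2H4A, which was 433, 628, 516 and 414 CPM and so highest in replicate 2.

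Other short transcripts moved the same way. Among protein-coding rows outside the histone set at 10 CPM or more, the median deviation in replicate 2 was 0.19 log2 units for 59 rows with under 1000 bases of exon, 0.13 for 1465 rows of 1000 bases to under 3000 and 0.01 for 7648 longer rows. In replicate 1 the same classes stood at -0.11, -0.06 and 0.01. Structural RNAs without a poly(A) tail were also highest in replicate 2 or close to it: RN7SL1 had 22747, 37235, 31024 and 25453 CPM, and RPPH1 had 7215, 13132, 9228 and 7544 CPM. Their part in the spread of the histone rows was not tested.

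**Figure D5:**
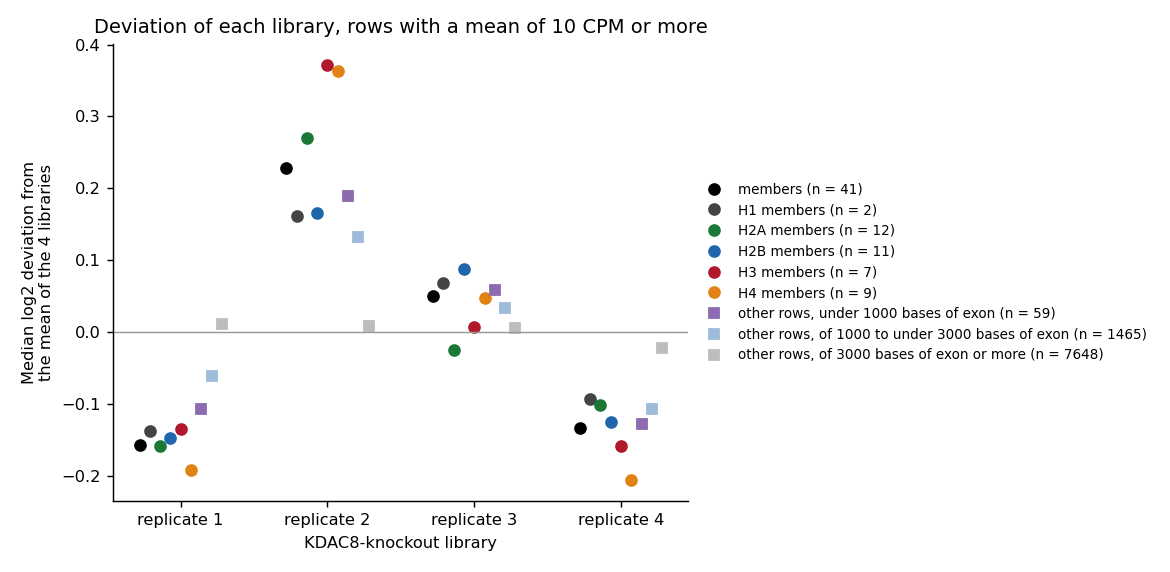
Median log2 deviation of each library from the mean of the 4 libraries, for histone rows in all and by type (circles) and for other protein-coding rows by length of exon (squares), rows at 10 CPM or more. In replicate 2 the medians are 0.23 for all 41 histone rows, 0.19 for other rows under 1000 bases and 0.01 for rows of 3000 bases or more.

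The machinery that makes histone mRNA was detected nearly throughout. The median SD was 0.12 log2 units over the transcription list and 0.06 over the list for 3′ end processing. It was 0.19 for the 41 histone rows and 0.09 for all 9480 rows at 10 CPM or more. These differences were not tested. The lists were not limited to 10 CPM or more, and the value of 0.06 includes RNU7-1, whose SD is 0 because it had 0 counts. All 12 genes of the transcription list were detected, against 58.8% of protein-coding rows. NPAT, the coactivator of histone genes at histone locus bodies, had 62.1, 53.5, 53.4 and 59.8 CPM, and CASP8AP2 had 37.0, 32.9, 31.3 and 40.4 CPM, both lowest in replicates 2 and 3. Of the list, 9 of 12 varied between libraries and 0 by 1.5 times or more, against 59.2% and 12.3% of all rows tested, and 77.7% and 1.75% of rows at 10 CPM or more. In the list for 3′ end processing, 16 of 17 genes were detected, 12 of 16 tested varied and 0 did by 1.5 times. SLBP had 69.4, 69.4, 65.8 and 66.9 CPM and did not pass the test (chi-square test, adjusted p = 0.150, highest library 1.05 times the lowest). LSM10, a subunit specific to the U7 particle, had 18.2, 23.1, 19.0 and 16.3 CPM, with replicate 2 highest, and its partner LSM11 had 18.9 ± 0.724 CPM. Further 3′ end factors were ZNF473 at 23.4 ± 0.425 CPM, the endonuclease CPSF3 at 93.4 ± 3.50 CPM, SYMPK at 130 ± 4.30 CPM and CSTF2 at 42.3 ± 1.32 CPM. RNU7-1, the U7 small nuclear RNA, was listed at 0 in all 4 libraries. The counts do not show whether RNA this small was kept in the libraries, so its level is not read. ERI1, an exonuclease that trims histone mRNA, had 65.4 ± 4.12 CPM.

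Genes that receive the proteins were detected throughout. All 12 genes of the chaperone and deposition list were detected, against 58.8% of protein-coding rows. Of these, 10 varied and 0 did by 1.5 times, against 77.7% and 1.75% of rows at 10 CPM or more. NASP, a chaperone of H3 and H4, had 93.5 ± 4.48 CPM. The deposition factors had 52.8 ± 2.37 CPM for CHAF1A, 28.5 ± 1.26 CPM for CHAF1B, 26.5 ± 1.24 CPM for ASF1A and 26.2 ± 1.61 CPM for ASF1B. The S phase list of 10 genes summed to 1371, 1474, 1460 and 1391 CPM, with replicates 2 and 3 close to each other, where the summed histone level was 9406 and 7958 CPM.

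Replication-independent variants, whose mRNAs are mostly polyadenylated, had a lower summed CPM than the replication-dependent genes in each library, on a scale that is not per length. The 12 variant genes summed to 1590, 1820, 1678 and 1536 CPM, against 6981, 9406, 7958 and 7016 CPM for the 76 replication-dependent rows. The highest variant library was 1.19 times the lowest, against 1.35 times for the replication-dependent sum. Of the 12, 10 were detected, against 58.8% of protein-coding rows. Between libraries 8 varied and 0 did by 1.5 times or more, against 59.2% and 12.3% of all rows tested. H2AFZ, an H2A variant found at promoters, had 427 ± 40.5 CPM. H3F3B and H3F3A, which encode the same H3.3 protein, had 386 ± 30.7 CPM and 159 ± 17.1 CPM. The linker variants were H1FX at 148 ± 20.7 CPM and H1F0 at 83.9 ± 3.93 CPM, and H2AFX, which is phosphorylated at DNA breaks, had 130 ± 11.8 CPM.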

How the data were processed

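RNA was sequenced from 4 HT1080 libraries, which form 1 group and allow no comparison of groups. The authors deposited expected counts per Ensembl gene, not scaled between libraries; this unit was read from the values, 10.6% to 11.9% of which are not whole. RSEM 1.3.3, Bowtie2 2.5.4, DESeq2 1.46.0, Trimmomatic 0.39 and the build GRCh38 are named per the submitters' processing notes; roles, annotation release and strand setting are not given in the sources. An expected count can divide a read among similar genes, and without a known strand setting overlapping genes on opposite strands, such as HIST2H3C and HIST2H4A (230 bases), cannot be told apart. Every per-sample column matched a sample.

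Expected counts were rounded for the library sizes and the chi-square test, and left unrounded for CPM, sums and shares. CPM used TMM sizes (edgeR 4.0.16; factors 1.02, 0.963, 0.988 and 1.03), and logs a pseudocount of 0.01 CPM. Variation between libraries was tested by a chi-square test of homogeneity for rows averaging at least 10 counts, adjusted over all of them by Benjamini-Hochberg at 0.05, and the procedure was tested on simulated data. That test covers counting error only, since amplified reads are not independent molecules. Gene positions, classes, lengths and transcripts came from GENCODE 29, which holds 94.0% of the table's IDs and may differ from the authors' release. Shared sequence was the share of windows of 100 bases of a member's transcripts found in another gene. The members, lists and tests were chosen with earlier results of these data known. The rows named were all H1, HIST3 and HIST4 rows, the 4 highest and the most variable row of each other type, the rows next to 1 CPM, rows with the same protein, and lead factors of each pathway step; others are marked. Alternatives were DESeq2 1.42.0 size factors, total counts, other thresholds and filters, coding length, other windows and leaving out each library.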

Additional observations from a re-analysis of the deposited data

Results flagged for a closer look

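Within the group of 4 libraries, 65 values were examined for a library far from the other 3 (a gap that takes up nearly the whole range of the group), and 3 were marked. Chance marks about 1 in 20 such groups. HIST1H2AC stood at 427 CPM in replicate 2, and the nearest other library was at 319 CPM. HIST1H2AI stood at 253 CPM in replicate 2, and the nearest other library was at 210 CPM. HIST1H3D stood at 27.4 CPM in replicate 2, and the nearest other library was at 18.8 CPM.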

How the results depend on the processing

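No paired analysis was possible because the libraries form 1 group. Of 93 alternative values of the summary results, 86 kept their side or stayed within the limits set for them, among them every count of detected members (43 to 48 over thresholds of 0.5 to 5 CPM). The count of members that varied by 1.5 times or more was 13 in the main analysis, 8 with total counts, 12 with DESeq2 size factors and 1 to 13 when 1 library was left out, with the value of 1 reached without replicate 2. The summed level per kb moved when coding length replaced exonic length, to 5197 for H2A, 3631 for H2B, 4023 for H3 and 5979 for H4, and the log2 ratio of H2A over H4 reversed to -0.20 (this alternative was chosen after seeing the data). Summing copies before the test, also chosen after seeing the data, gave 11. For single rows, 17 of 375 values of the 47 rows called as varying lost the call, 7 of them without replicate 2. For each, the cause was not tested. With 1 group, 4 libraries and no control, the data cannot show an effect of the knockout. Levels of copies with shared windows, and of rows whose model holds only the coding sequence, depend on the annotation and counting.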
